A study of Arabidopsis thaliana with 20 samples.

Results

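The ozone response of rosettes labelled wrky75 was described across all genes from 6 of the 20 libraries of the series. They were chosen by sample title as wrky75 ozone (3 libraries) and wrky75 control (3 libraries). The name wrky75 stands for a mutant of WRKY75, a WRKY transcription factor gene, and below for the libraries so labelled. The sources used here give neither the allele nor the number of lines. In the ozone group, Arabidopsis thaliana plants aged 3 weeks received 350 ppb ozone for 2 h, and in the control group plants of the same age and genotype received none. Each library held the RNA of 5 whole rosettes pooled before extraction, so differences between single plants were averaged out. For comparison, wrky25 wrky33 had 3 ozone and 3 control libraries, and the Columbia wild type (Col-0) had 4 ozone and 4 control libraries, of the same age and treatment. The labels call the pools biological replicates.

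Ozone enters leaves through the stomata and breaks down in the apoplast to reactive oxygen species, much as in the oxidative burst that plants make when receptors at the cell surface detect a pathogen. Calcium-dependent and mitogen-activated protein kinases relay such signals to transcription factors, among them the WRKY family, which binds the W-box, a DNA element with the core TTGAC. WRKY75 is known as a regulator of leaf senescence, phosphate starvation responses and root hair formation, and has been described as an activator of the salicylic acid synthesis gene EDS16 and a repressor of the catalase gene CAT2.

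The libraries held 20505104 to 20755838 counts under ozone and 20563644 to 20617871 counts in control, and a count was found for 22484 to 22687 genes under ozone and 22214 to 22385 genes in control. Levels below are CPM, the count of a gene relative to the total of its library on a common scale, corrected with trimmed-mean factors. CPM does not correct for gene length, so where genes are ordered or summed by CPM below, the order is one of counts in the library and not of transcripts. The 10 most abundant genes took 5.88%, 4.963% and 4.886% of the counts in the ozone libraries, against 10.05%, 8.37% and 9.546% in the control libraries (exact two-sided permutation test, p = 0.1, the smallest that 3 against 3 libraries allow). On the first principal component of the 6 libraries (90.3% of the variance), the ozone libraries lay at 93.3, 119 and 110 and the control libraries at -116, -88.1 and -118. The wrky75 control library 2 deviated most. In it 821 genes were at least 2-fold higher than in the mean of the other 2 control libraries. The 2644 genes that ozone raised at least 2-fold in Col-0 were higher in it by a median of 0.27 (log2). The SD of its log2 differences from the other 2 libraries of the group was 0.476. Control library 1 (0.43) and ozone library 1 (0.44) came near that SD. On the first principal component of all 20 libraries, Col-0 control library 2 lay at -81.9 and wrky75 control library 2 at -82.1. With wrky75 control library 2, 13594 genes passed the test of the ozone response, and without it 13207 did.

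WRKY75 itself rose under ozone in the libraries labelled wrky75, and the 3 ozone libraries lay far above the 3 control libraries. Its level was 28.00, 72.8 and 56.04 CPM under ozone, against 0.302, 0.431 and 0.352 CPM in control, a log2 fold change of 7.15 ± 0.56 (± standard error; adjusted p = 4.51e-09, edgeR). Counts over the annotated gene at chr5:4149740-4151150 (TAIR10, minus strand) therefore do not show the lesion as a loss of transcript, and a count per gene cannot show whether the transcript is complete. The corresponding level was 18.8, 25.4 and 20.8 CPM in wrky25 wrky33 ozone libraries and 47.98, 129, 109 and 50.4 CPM in the ozone libraries of Col-0, against 0.351, 0.573, 0.734 and 0.273 CPM in the control libraries of Col-0. The WRKY75 levels of wrky75 ozone libraries fell inside the range of Col-0 ozone libraries in 2 of 3 cases. The response of the gene differed from that in Col-0 by -0.28 ± 0.90 (log2, adjusted p = 1.000, edgeR interaction test), a difference smaller than its standard error.

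WRKY33, a WRKY factor required for camalexin synthesis, reached 570.2, 418 and 327 CPM under ozone, against 11.97, 55.98 and 19.5 CPM in control. Control library 2 held the highest of the control values, and the ozone libraries still lay above all of them (log2 fold change 3.91 ± 0.46). WRKY25, its close relative, reached 115, 155 and 124 CPM under ozone, against 6.99, 14.5 and 6.94 CPM in control (log2 fold change 3.79 ± 0.29), again with control library 2 as the highest control.

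Across the 19954 genes tested, 13594 (68.1%) passed edgeR's quasi-likelihood test at an adjusted p of 0.05, and are called changed in what follows. Of them 6390 were higher under ozone (32.0% of the genes tested) and 7204 were lower (36.1%). Such shares are the background against which each gene group below is to be read. The groups were listed with earlier results of these data known, so their counts are descriptions and not tests. Large increases outnumbered large decreases: 3744 genes rose at least 2-fold (18.8%) and 3322 fell at least 2-fold (16.6%), but 1124 rose at least 8-fold (5.63%) against 189 that fell at least 8-fold, and 252 rose at least 64-fold against 8 that fell as far. The 3 ozone and the 3 control libraries did not overlap for 14414 genes (72.2%). Over all genes the median log2 fold change was -0.109, and it moved by 0.11 with the scaling of DESeq2 and by -0.19 with upper-quartile scaling. With DESeq2 scaling 52.3% of the calls were increases, with upper-quartile scaling 38.0%, and with the scaling used here 47.0%.

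The changes shifted the make-up of the transcript pool. Genes that rose at least 2-fold took 33.9%, 40.0% and 38.0% of all counts in the ozone libraries, against 6.30%, 7.79% and 6.38% in the control libraries. Genes that fell at least 2-fold took 17.9%, 13.1% and 12.9% in the ozone libraries, against 41.6%, 38.9% and 41.0% in the control libraries. These shares describe the genes by the measure that chose them. Among the 107 genes with a mean level of at least 1000 CPM, 79 were lower (73.8%) and 20 were higher, whereas among the 1731 genes between 100 and 1000 CPM, 616 were lower and 710 were higher. Of 62 transcripts encoded in the plastid that were tested, 1 was called higher and 2 lower, and of 15 mitochondrial transcripts tested none was called (edgeR). Organelle transcripts mostly lack the poly(A) tail on which the library kit selects, and they took under 0.05% of the counts.

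**Figure D1:**
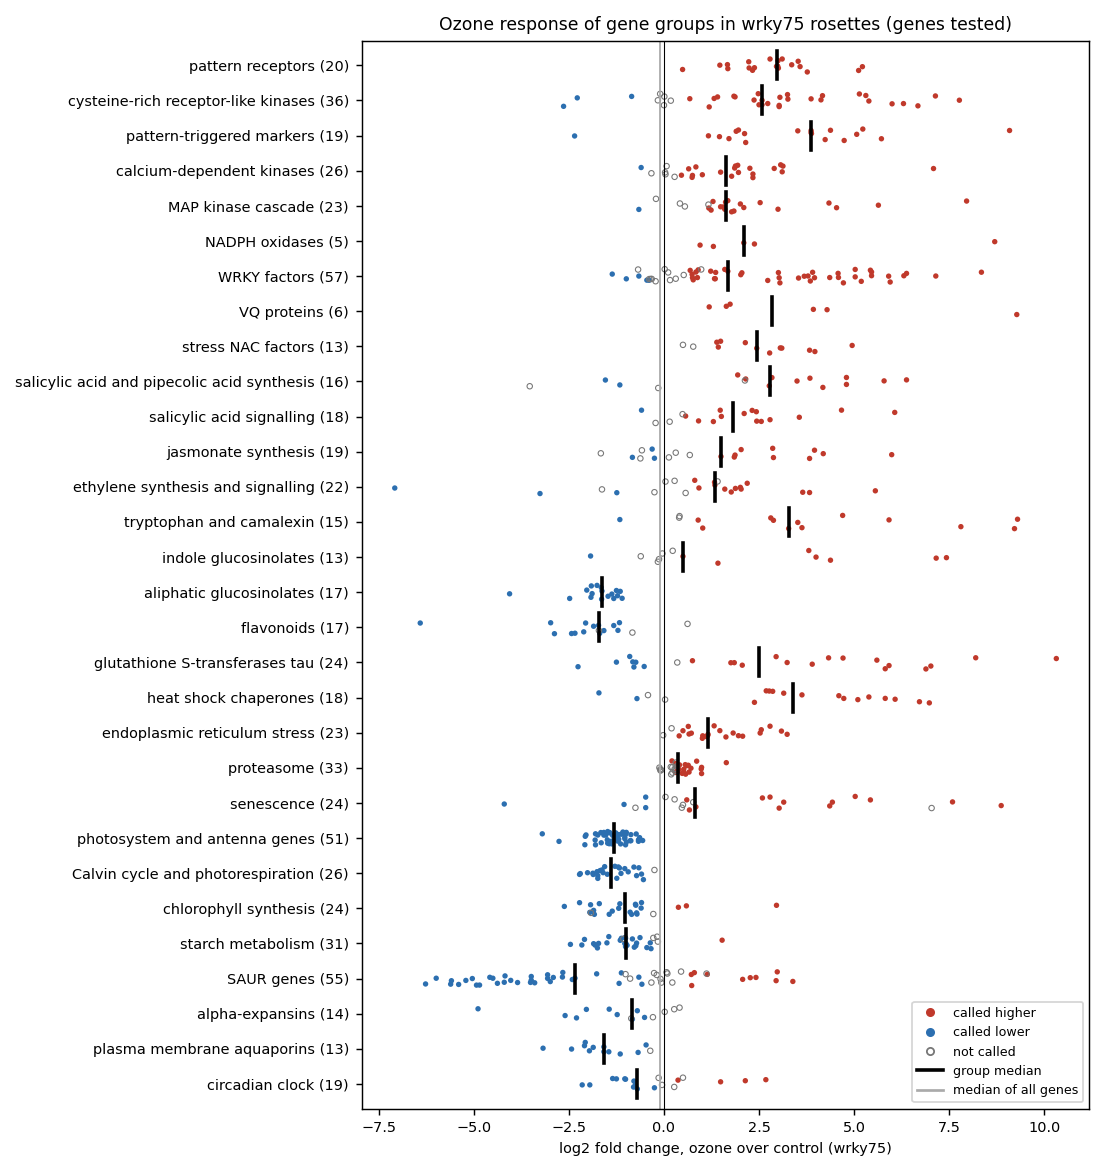
Log2 fold change (ozone over control, wrky75) of every tested member of 30 gene groups, 1 dot per gene, with filled dots for genes that passed the test and open dots for the others; the black bar is the group's median and the grey line the median of all 19954 genes. All 20 pattern receptors lie right of 0 and all 51 photosystem and antenna genes lie left of it.

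The largest increases came from genes that were silent or nearly silent without ozone. No read was counted in any control library for 70 of the genes called higher, and 10 of these averaged at least 5 CPM under ozone. The first was AT5G59530, which encodes an oxygenase of the 2-oxoglutarate family. Its level was 10.04, 15.4 and 16.9 CPM in the ozone libraries, and with no count in the 3 control libraries it was at least 285-fold higher (taking 3 counts in all control libraries together as the limit). AT3G49540, which encodes a protein without annotation, was at least 204-fold higher at 5.48, 17.1 and 7.72 CPM, and AT2G35730, of the heavy metal transport family, was at least 203-fold higher at 6.49, 13.1 and 10.6 CPM. The others were GLIP3, a GDSL lipase, GSTU12, a glutathione S-transferase, AT3G43250, AT3G25490 and the lectin-related genes PP2-B6, PP2-B7 and PP2-B8. Their bounds ran from at least 127-fold to at least 196-fold.

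Next came genes with 1 to 3 control counts, for which the ratio of counts is given with its 95% counting interval. That interval pools the libraries of each group and leaves out the spread between them. PROPEP3 encodes the precursor of a danger peptide that surface receptors perceive. Its counts rose 952-fold (171 to 37654), with 23.99, 13.96 and 9.87 CPM under ozone, against 0, 0 and 0.0503 CPM in control. CYP82C3, a cytochrome P450, rose 1318-fold (364 to 10887). The ratio was 823 (281 to 3995) for PER4, an apoplastic class III peroxidase, 1636 (293 to 64671) for the oxidoreductase gene AT1G59950 and 818 (279.7 to 3971) for AT3G44830, of the lecithin:cholesterol acyltransferase family. UGT73B4, a glycosyltransferase, had 112, 193 and 158 CPM under ozone, against 0.0503, 0.144 and 0.101 CPM in control (log2 fold change 10.52 ± 0.56). Its gene model overlaps that of UGT73B5 on the same strand, so reads of the pair may be shared. AT1G56060, which encodes a small cysteine-rich transmembrane protein, rose to 232, 432 and 271 CPM under ozone, against 0.201, 0.575 and 0.251 CPM in control (log2 fold change 9.79 ± 0.59).

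The 10 largest decreases were taken from genes whose groups do not overlap. EXPA8, an alpha-expansin that loosens cell walls, had 2.64, 2.87 and 2.65 CPM under ozone, against 114, 50.8 and 76.8 CPM in control (log2 fold change -4.89 ± 0.43). AT1G29430, of the auxin-responsive SAUR family, had 0.254, 0.389 and 0.320 CPM under ozone, against 11.5, 10.3 and 10.6 CPM in control (log2 fold change -5.04 ± 0.31). GASA6, a gibberellin-regulated gene, fell to 6.44, 7.25 and 3.699 CPM under ozone, against 164, 83.9 and 122 CPM in control, and PRE1, a helix-loop-helix factor that promotes elongation, fell to 0.659, 0.389 and 0.639 CPM, against 13.4, 8.67 and 10.5 CPM. AT1G13650 varied widely among the ozone libraries, with 21.05, 2.24 and 3.29 CPM under ozone, against 214, 191 and 199.7 CPM in control (log2 fold change -4.51 ± 0.87). The remaining members of the 10 were AT5G54585, AT2G29300 of the Rossmann-fold family, AT1G23205 of the invertase and pectin methylesterase inhibitor family, AT2G27420 of the cysteine proteinase family, and AT4G29905, with log2 fold changes of -4.79 ± 0.50, -4.68 ± 0.58, -4.37 ± 0.44, -4.27 ± 0.91 and -4.25 ± 0.32.

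**Figure D2:**
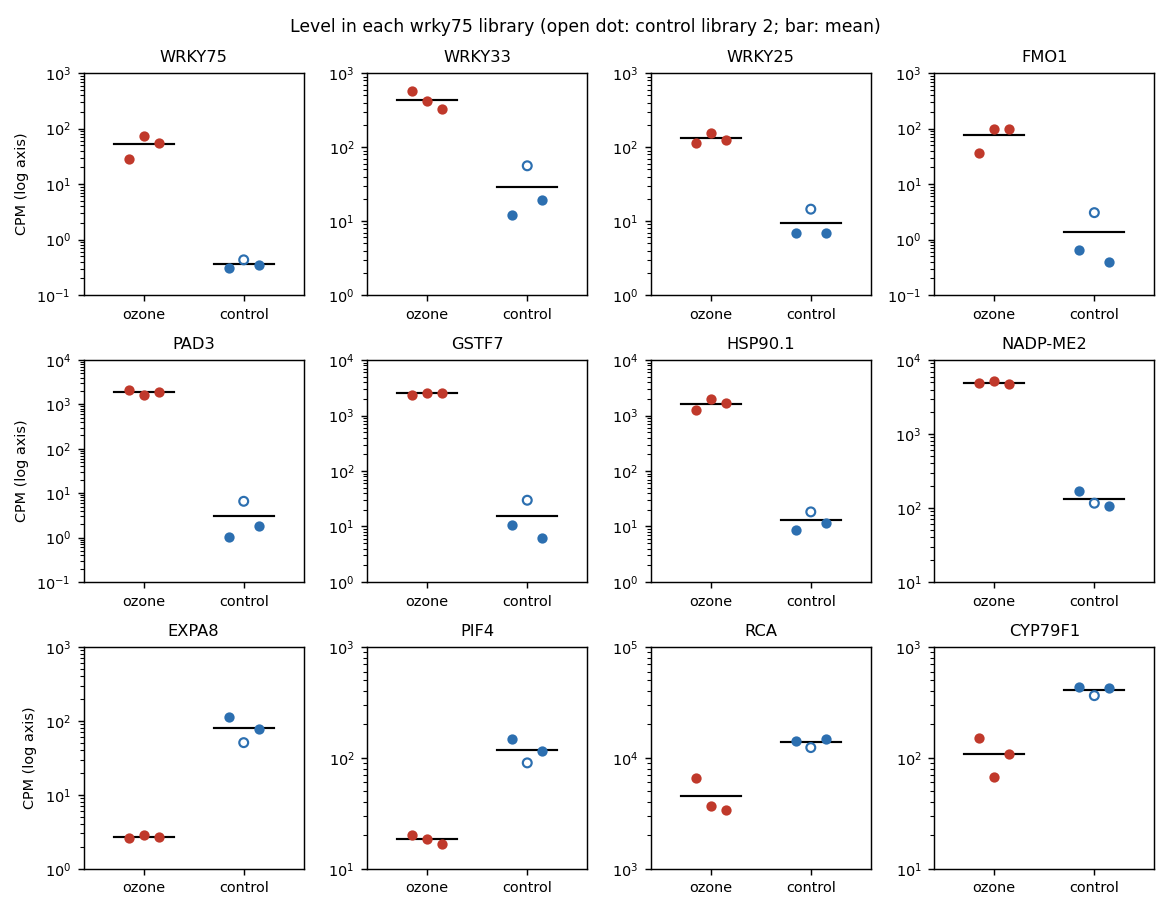
Level in CPM (log axis) of 12 named genes in each wrky75 library, ozone at left and control at right in each panel; a dot is 1 library and the bar is the group mean. The ozone and control libraries are separate in all 12 panels, and control library 2 (open dot) is the highest control for WRKY25 and WRKY33.

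By the number of counts gained, the first gene was NADP-ME2, a cytosolic malic enzyme that makes NADPH. It had 4846, 5242 and 4697 CPM under ozone, against 172, 116 and 105 CPM in control (log2 fold change 5.23 ± 0.26). PEN3, a plasma membrane exporter of defence metabolites, had 6198, 4612 and 3682 CPM under ozone, against 289, 284 and 194 CPM in control, and ABCG40, an exporter of the same family known to carry abscisic acid, had 3443, 3565 and 3718 CPM under ozone, against 6.94, 11.5 and 6.03 CPM in control. These are rises of 4.24 ± 0.29 and 8.77 ± 0.38 (log2). The glutathione S-transferase GSTF6, the legume lectin-like genes AT3G16530 and AT3G15356, the polyubiquitin gene UBQ10 and the chaperone genes AT3G09440, HSC70-1 and Hsp70-2 completed the 10. HSC70-1, the constitutive cytosolic chaperone, had 4872, 6073 and 5595 CPM under ozone, against 1703, 1652 and 1750 CPM in control (log2 fold change 1.70 ± 0.17), and its neighbour Hsp70-2 had 1772, 3481 and 2885 CPM under ozone, against 20.6, 32.2 and 19.6 CPM in control (log2 fold change 6.81 ± 0.46). The HSP70 genes are alike in sequence and may share reads.

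All of the 10 largest losses were nuclear genes of photosynthesis. RCA, the activase of Rubisco, had 6550, 3709 and 3403 CPM under ozone, against 14296, 12380 and 14749 CPM in control (log2 fold change -1.60 ± 0.29), and RBCS1A, a small subunit of Rubisco, had 13706, 8692 and 8258 CPM under ozone, against 19144, 16956 and 19748 CPM in control (log2 fold change -0.87 ± 0.24). The other 8 encode light-harvesting proteins: LHCA1, LHCA4, LHCB3, LHCB5, LHCB6, LHB1B2, CAB1 and CAB3, with log2 fold changes between -1.58 ± 0.28 (LHCB3) and -1.03 ± 0.31 (CAB1). CAB1, CAB2 and CAB3 are nearly identical genes and may share reads.

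A few abundant genes stayed at their level. With the 95% interval of the log2 fold change within 0.26 of 0 and a mean of at least 100 CPM, 20 of 1838 genes qualified, and ATP3, a subunit of mitochondrial ATP synthase, was one of them with 276, 258 and 260.1 CPM under ozone, against 268, 249 and 262 CPM in control (log2 fold change 0.03 ± 0.09). Others were the vacuolar proton pump gene VAB1 (0.02 ± 0.08), the manganese superoxide dismutase gene MSD1 (0.04 ± 0.08) and the plastid malic enzyme gene NADP-ME4 (0.03 ± 0.10). DESeq2, with its other scaling, called VAB1 and MSD1 changed. Of 16 genes often used as references in quantitative PCR, 6 were called higher and 2 lower, with UBQ10 at 2.01 ± 0.18, UBC9 at 1.05 ± 0.14, GAPC1 at 1.04 ± 0.17 and GAPC2 at -1.02 ± 0.17. PP2AA3 (0.07 ± 0.08) and TUB4 (0.04 ± 0.14) were not called by edgeR, and DESeq2 called PP2AA3 higher (0.18).

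Genes that perceive danger signals at the cell surface were higher as a group. All 20 genes tested on the list of pattern receptors and their partners were called higher, against 32.0% of all genes, with a median log2 fold change of 2.97. IOS1, a receptor kinase of the malectin-like class, had 209, 151 and 159.5 CPM under ozone, against 2.51, 9.24 and 2.11 CPM in control, and the receptor-like protein gene RLP30 had 57.98 ± 5.72 CPM under ozone, against 1.66 ± 0.233 CPM in control (± SD, n = 3). RLP30 overlaps AT3G05350 on the same strand, so its reads may be shared. BIK1, the cytoplasmic kinase that phosphorylates the NADPH oxidase RBOHD, rose by 3.77 ± 0.21, and SERK4, a co-receptor, by 3.58 ± 0.21. Of 36 cysteine-rich receptor-like kinases tested (of 38 annotated), 28 were higher and 3 lower, with a median of 2.58. The largest among them were CRK31 (243-fold by counts, counting interval 82.9 to 1182), CRK20 (7.14 ± 0.37), CRK32 (6.68 ± 0.59) and CRK39 (6.30 ± 0.42). Many of these kinases lie in tandem on chromosome 4 and may share reads. Of 7 genes of danger and alkalinising peptides, PROPEP3 and PROPEP2 (6.65 ± 0.66) were higher and RALF23 (-2.15 ± 0.26) and PROPEP5 (-0.90 ± 0.28) were lower.

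Kinase and oxidative burst genes were higher too. Of 26 calcium-dependent and related kinases tested, 20 were higher and 1 lower. AGC2-1, the kinase OXI1 that is activated by hydrogen peroxide, had 48.5, 53.7 and 35.4 CPM under ozone, against 0.302, 0.383 and 0.302 CPM in control (log2 fold change 7.09 ± 0.26). CPK6, which acts in stomatal closure, rose by 3.13 ± 0.17, and CDPK1 and CPK29 by 3.11 ± 0.18 and 3.07 ± 0.16. The CDPK1 model overlaps that of NRT1.9, so reads may be shared. In the mitogen-activated kinase cascade 18 of 23 genes were higher, led by MAPKKK19 (7.96 ± 0.63), MPK11 (5.64 ± 0.49), MAPKKK21 (4.54 ± 0.65) and MKK7 (4.34 ± 0.41). All 5 NADPH oxidase genes tested were higher. RHD2, the oxidase of root hair growth, had 348, 444 and 309 CPM under ozone, against 0.804, 0.862 and 0.955 CPM in control, and RBOHD, the oxidase of the pathogen-induced burst, had 313, 282 and 214 CPM under ozone, against 49.1, 78.3 and 61.3 CPM in control. The rise was 8.70 ± 0.34 (log2) for the first and 2.1 ± 0.23 for the second. Of 9 class III peroxidases tested, 8 were higher, among them Prx37 at 8.76 ± 0.51. Of 12 calmodulin-like sensors, 9 were higher, with CML37 at 117, 285 and 153 CPM under ozone, against 0.352, 2.06 and 0.402 CPM in control, and the touch-inducible TCH2 was not called (-0.03 ± 0.33).

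Markers of pattern-triggered immunity were called higher in 18 of 19 cases (median 3.87). YLS9 had 166, 255 and 233 CPM under ozone, against 0.302, 0.766 and 0.101 CPM in control, the syntaxin gene SYP122 had 570.2 ± 183 CPM under ozone, against 10.8 ± 7.23 CPM in control, and FRK1, the flagellin-induced receptor kinase, rose by 3.87 ± 0.51. PHI-1 was the member that fell (-2.35 ± 0.73), but it was not called without control library 2 (-0.66) or in the fit of only the 6 wrky75 libraries (-2.30).

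Transcription factors of several families changed. Of 57 WRKY genes tested (of 68), 41 were higher and 5 lower, with a median of 1.68, and 16 rose at least 16-fold, against 3.44% of all genes. WRKY40, a repressor of early defence genes, had 463, 463 and 429.5 CPM under ozone, against 0.603, 10.8 and 4.73 CPM in control, and WRKY31 rose by 6.31 ± 1.05. WRKY67 had 3 counts in control and rose 374-fold by counts (counting interval 128 to 1816). Its log2 fold change was 8.35 (adjusted p = 4.63e-05, edgeR). All 6 genes of VQ proteins, partners of WRKY factors, were higher, with SIB1 at 4.29 ± 0.38. Of 11 stress zinc finger genes 9 were higher, with RHL41 (ZAT12) at 144, 269 and 193 CPM under ozone, against 0.654, 8.43 and 1.51 CPM in control, and of 13 NAC genes 11 were higher, with NAC3 (4.95 ± 0.75), NAC032 (3.97 ± 0.23), NAC053 (3.83 ± 0.23) and NAC019 (3.10 ± 0.64) in front. In the list of ERF and DREB stress factors 11 of 17 were higher and 2 lower. ORA59, which integrates jasmonate and ethylene signals, had 37.5, 58.7 and 48.7 CPM under ozone, against 0.101, 1.197 and 0.201 CPM in control. The cold factor DREB1A was at 0.147 ± 0.152 CPM under ozone, against 0.767 ± 0.737 CPM in control and not called (adjusted p = 0.0641, edgeR), while 5 of 13 other settings called it lower: the replicate block (-2.32, adjusted p = 0.00218, edgeR), DESeq2 (-2.28), upper-quartile scaling (-2.53), and the fits without control library 2 (-2.78) or ozone library 1 (-3.33).

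Salicylic acid synthesis and signalling genes were mostly higher. Of 16 genes of salicylic and pipecolic acid metabolism 11 were higher and 2 lower. FMO1, which makes N-hydroxypipecolic acid, had 36.1, 98.4 and 96.8 CPM under ozone, against 0.654, 3.06 and 0.402 CPM in control. EDS5, the transporter of the isochorismate precursor, rose by 4.80 ± 0.48, PBS3, which conjugates it to glutamate, by 4.80 ± 0.57, and the glycosyltransferase gene UGT76B1 by 6.38 ± 1.18. The EDS5 model overlaps a gene on the other strand. In salicylic acid signalling 14 of 18 were higher, led by GRX480 (6.07 ± 0.72), NIMIN-2 (4.67 ± 0.65) and NIMIN1 (3.56 ± 0.66). The classical marker PR1 was not called (adjusted p = 0.671, edgeR): its levels were 38.2, 108 and 87.9 CPM under ozone, against 47.5, 116 and 3.37 CPM in control, and the libraries of the groups overlapped.

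Jasmonate genes changed unevenly. Of 19 genes of synthesis and turnover 10 were higher and 3 lower, with the cyclase gene AOC3 at 228, 346 and 312 CPM under ozone, against 1.76, 8.86 and 3.22 CPM in control, LOX4 at 4.19 ± 0.37 and ACX1 at 3.96 ± 0.25. LOX2 (-0.62 ± 0.48) and AOS (-0.58 ± 0.32) were not called, and AOS was called lower without control library 1 (-0.84) and with upper-quartile scaling (-0.77). Of 21 JAZ repressors and outputs 11 were higher, led by JAZ8 (4.97 ± 0.53), TAT3 (4.53 ± 0.95), JAZ1 (3.82 ± 0.55) and JAZ5 (3.75 ± 0.38), and 2 were lower. Ethylene genes were higher in 13 of 22 cases. The synthase genes moved apart: ACS2 had 10.4, 11.7 and 13.7 CPM under ozone, against 0.201, 0.335 and 0.201 CPM in control, while ACS4 had 0, 0.0487 and 0 CPM under ozone, against 2.26, 4.55 and 2.16 CPM in control. EFE, an oxidase of the last step, had 2395 ± 119 CPM under ozone, against 168 ± 45.1 CPM in control. Of 35 abscisic acid genes 13 were higher and 10 lower, close to the background, with the receptor gene PYL6 at 4.65 ± 0.55, the phosphatase gene HAI1 at 2.79 ± 0.47 and the catabolic CYP707A2 at -2.35 ± 0.40.

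Defence metabolism went both ways, with indolic genes higher and methionine-derived genes lower. Of 15 genes of tryptophan and camalexin synthesis 12 were higher. PAD3, which makes camalexin, had 2104, 1595 and 1940 CPM under ozone, against 1.01, 6.56 and 1.81 CPM in control (log2 fold change 9.22 ± 0.61), and CYP71A12 and CYP71A13, neighbouring genes that feed it, rose by 9.30 ± 0.30 and 7.81 ± 0.77. Of 13 indole glucosinolate genes 7 were higher and 1 lower, led by MYB122 (7.43 ± 0.37), IGMT2 (7.16 ± 0.62), CYP81F2 (4.38 ± 0.71) and IGMT1 (4.0 ± 0.56). In contrast, all 17 genes of aliphatic glucosinolates were lower (36.1% of all genes), with a median of -1.64. The regulators MYB76 and MYB29 fell by 4.06 ± 0.56 and 2.48 ± 0.29, and the entry enzyme CYP79F1 had 151, 67.6 and 108 CPM under ozone, against 437, 364 and 431 CPM in control. Of 20 phenylpropanoid and lignin genes 14 were higher, with CCR2, a cinnamoyl-CoA reductase, at 115, 128 and 86.3 CPM under ozone, against 1.36, 3.16 and 1.51 CPM in control, and of 17 flavonoid genes 14 were lower and none higher. TT4, chalcone synthase, fell to 85.2, 26.2 and 38.3 CPM under ozone, against 187, 354 and 265 CPM in control.

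Detoxification genes included some of the strongest responses. Of 24 tau-class glutathione S-transferases tested 16 were higher and 7 lower, with a median of 2.51, and 9 rose at least 16-fold, among them GSTU3 (8.20 ± 0.69), GSTU24 (7.02 ± 0.46) and GSTU4 (6.89 ± 0.62). In the other classes 9 of 19 were higher and 6 lower, with a median of 0.11 and with GSTF7 at 2379, 2552 and 2597 CPM under ozone, against 10.7, 29.7 and 6.29 CPM in control. Members of this family lie in tandem and may share reads. Of 12 genes of the mitochondrial retrograde response 8 were higher: AOX1D, an alternative oxidase, had 111, 246 and 183 CPM under ozone, against 0.352, 1.15 and 0.0503 CPM in control, and NDB2, an external NADH dehydrogenase, rose by 4.60 ± 0.28. All 4 genes of RCD1 and its relatives tested were higher, with RCD1, whose loss makes plants sensitive to ozone, at 423, 551 and 543 CPM under ozone, against 175, 179 and 158 CPM in control. Of 26 catalases, ascorbate peroxidases and dismutases 8 were higher and 8 lower, with a median of -0.07. APX1, cytosolic ascorbate peroxidase, had 2655, 3051 and 2879 CPM under ozone, against 792, 891 and 774 CPM in control, and CAT2, the photorespiratory catalase, had 739.8, 321 and 303 CPM under ozone, against 1522, 2239 and 2105 CPM in control. In glutathione and ascorbate metabolism 9 of 19 were higher and 7 lower.

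Protein folding and turnover genes rose in large numbers, by different amounts. Of 18 heat shock chaperones 14 were higher, with HSP90.1 at 1253, 1978 and 1656 CPM under ozone, against 8.798, 18.3 and 11.4 CPM in control (log2 fold change 6.98 ± 0.43), and of 15 heat shock factors 7 were higher, with HSFA2 at 109, 132 and 102 CPM under ozone, against 1.01, 2.11 and 1.26 CPM in control. In the endoplasmic reticulum stress list 21 of 23 were higher, with a median of 1.16 and with BIP3 (3.24 ± 0.71), BZIP60 (3.09 ± 0.23) and IRE1A (2.53 ± 0.10) among them. The proteasome was higher in 21 of 33 genes and lower in none, but the median was only 0.37, and RPT3 (1.64 ± 0.20) was the 1 gene past 2-fold. Upper-quartile scaling left 11 of them higher and turned 4 proteasome genes lower, the scaling of DESeq2 gave 27 higher, and without ozone library 3 there were 13. Autophagy genes were higher in 13 of 22 cases, led by ATG8H (2.09 ± 0.30). Of 18 cell death regulators 15 were higher, with BAP2, an inhibitor of cell death, at 56.5, 245 and 183 CPM under ozone, against 0.603, 1.05 and 0.402 CPM in control and the metacaspase gene MC8 at 5.87 ± 0.60.

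Of 24 senescence-associated genes tested 13 were higher and 4 lower. DIN11, an oxygenase gene induced by darkness, had 929.9, 638 and 984 CPM under ozone, against 0.402, 3.35 and 1.66 CPM in control, and BCB, a blue copper protein, had 2004 ± 391 CPM under ozone, against 10.4 ± 7.29 CPM in control. SAG12, the marker of late senescence, was not called (adjusted p = 0.155, edgeR): its levels under ozone were 0, 2.38 and 0 CPM, with no count in control. The chlorophyll breakdown gene NYC1 was lower (-1.05 ± 0.18).

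On the other side, nuclear genes of photosynthesis fell together. All 51 photosystem and antenna genes were lower (36.1% of all genes), with a median of -1.31, and all but 1 of 26 genes of the Calvin cycle and photorespiration were lower, with a median of -1.39. LHCB2.3 had 396, 163 and 156 CPM under ozone, against 2488, 1787 and 2286 CPM in control, FBA1, a plastid aldolase, had 805, 464 and 356 CPM under ozone, against 1989, 2803 and 2650 CPM in control, and PRK, phosphoribulokinase, had 463 ± 182 CPM under ozone, against 1861 ± 90.2 CPM in control. The ozone libraries were unequal: for 48 of the 51 photosystem genes and all 26 Calvin cycle genes ozone library 1 was the highest of the 3. Summed over the photosystem list, the level was 105881, 72214 and 65234 CPM in wrky75 ozone libraries, against 210416, 164921 and 196090 CPM in wrky75 control libraries. The same sum was 103481, 81686 and 78924 CPM in the wrky25 wrky33 ozone libraries with these numbers and 109392, 70025 and 60766 CPM in those of Col-0, so the library numbered 1 was the highest of the first 3 in each genotype. Whether a number marks a shared day or batch is not stated in the labels.

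Chlorophyll and starch genes were lower too. Of 24 chlorophyll synthesis genes 19 were lower and 3 higher, with GUN4, an activator of magnesium chelatase, at 74.7, 42.96 and 49.6 CPM under ozone, against 358, 294 and 377 CPM in control. Of 31 starch genes 26 were lower, with GBSS1, which makes amylose, at 51.2, 35.7 and 32.9 CPM under ozone, against 118, 312 and 230.4 CPM in control. BAM4 was the 1 member that rose (1.53 ± 0.20).

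The summed level of leaf mesophyll markers was 32705 ± 10387 CPM under ozone, against 72507 ± 8233 CPM in control (SD, n = 3 each; exact two-sided permutation test, p = 0.1, the smallest possible). All 10 of these markers were lower, and 9 of them are also on the photosystem or Calvin cycle list. In bulk tissue, fewer cells of a type and less RNA per cell cannot be told apart. Of the guard cell markers 1 of 8 was lower and 0 higher, with the summed level at 3347 ± 297 CPM under ozone, against 3758 ± 332 CPM in control (p = 0.300, same exact test). Epidermis and trichome markers were lower in 7 of 9 cases and vascular markers in 3 of 10. Only 5 of 15 root markers and 3 of 21 flower and seed markers had enough counts to be tested, and their sums under ozone were 72.4 ± 9.48 and 1.90 ± 0.511 CPM, against 100.3 ± 6.93 and 4.16 ± 1.29 CPM in control. The part of any change in cell types in the results was not tested.

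Growth genes formed the other large group of decreases. Of 55 SAUR genes tested (of 79) 33 were lower and 10 higher, with a median of -2.34. Neighbouring SAUR genes are alike and may share reads. Of 32 auxin response genes 21 were lower, with SHY2, an AUX/IAA repressor, at 2.64, 1.46 and 2.01 CPM under ozone, against 36.8, 37.3 and 27.7 CPM in control, IAA14 at -3.72 ± 0.34, IAA29 at -4.27 ± 0.57 and IAA6 at -6.22 ± 0.68. In auxin synthesis and transport 12 of 21 were lower, and PIN3, an efflux carrier, had 14.3, 14.4 and 15.99 CPM under ozone, against 102, 90.5 and 107 CPM in control. Gibberellin genes were lower in 11 and higher in 6 of 21 cases. The synthesis gene GA20OX1 fell to 0, 0.0487 and 0 CPM, against 5.88, 3.83 and 4.12 CPM in control, and the inactivating GA2OX6 rose to 33.1, 31.1 and 17.1 CPM, against 0.754, 0.575 and 0.754 CPM. Brassinosteroid genes were lower in 10 of 22 and higher in 6 cases, and cytokinin genes were lower in 11 of 25 and higher in 5. Of all genes tested, 36.1% were lower and 32.0% higher. BAS1, which inactivates brassinosteroids, fell by 3.81 ± 0.33, and the response regulator ARR9 by 2.40 ± 0.12.

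Cell wall and water channel genes fell with them. Of 14 alpha-expansins tested 9 were lower and none was called higher (1 or 2 were in 5 of the other settings). Xyloglucan endotransglucosylases went both ways, with 13 of 22 lower and 5 higher, XTH18 at 6.06 ± 0.59 and XTH6 at -3.53 ± 0.46 among them. Of 14 cellulose synthesis genes 10 were lower. CESA5, a primary wall subunit, had 69.8, 54.3 and 56.4 CPM under ozone, against 231, 269 and 260.0 CPM in control, while the secondary wall subunits IRX3 (0.17 ± 0.18), CESA4 (-0.11 ± 0.10) and IRX1 (0.08 ± 0.14) were not called. With upper-quartile scaling CESA4 was called lower (-0.29). Of 13 plasma membrane aquaporins 12 were lower and none higher, with a median of -1.58, and PIP2A had 195, 156 and 139 CPM under ozone, against 1434, 1457 and 1541 CPM in control. Of 12 helix-loop-helix growth factors 8 were lower, among them PIF4, which links warmth and light to growth, at 20.03, 18.7 and 16.7 CPM under ozone, against 148, 90.1 and 116 CPM in control. Cell cycle and histone genes were lower in 17 and higher in 3 of 36 cases, with a median of -0.35.

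Clock, flowering and nutrient genes were called in both directions. Apart from clock and sugar transporter genes, their shares were near or below those of all genes (32.0% higher and 36.1% lower). Of 19 clock genes 11 were lower and 4 higher. The morning genes CCA1 and LHY fell by 1.95 ± 0.28 and 1.35 ± 0.47, and the evening genes PCL1 and TOC1 rose by 2.68 ± 0.27 and 1.49 ± 0.10. LHY was not called without control library 2 or without ozone library 1 or 3 (-1.02 to -1.27). Of 19 flowering time genes 7 were lower and 2 higher. COL2 led the decreases at 9.13, 8.51 and 6.07 CPM under ozone, against 67.6, 90.8 and 101 CPM in control. Iron genes were higher in 5 and lower in 5 of 18 cases (3 and 8 with upper-quartile scaling), with the leaf ferric reductase genes FRO6 at 36.8, 19.2 and 16.6 CPM under ozone, against 304, 276 and 328 CPM in control and FRO7 at -3.49 ± 0.45. Sulfate genes were higher in 8 and lower in 10 of 24 cases, with APR3 at 2.18 ± 0.33, and nitrate genes in 4 and 7 of 20, with the transporter gene NRT2.6 at 37.7, 61.2 and 38.00 CPM under ozone, against 0.855, 0.527 and 0.503 CPM in control. Sugar transporters were higher in 12 and lower in 7 of 23 cases, with the hexose transporter MSS1 (STP13) at 680.3, 739 and 726 CPM under ozone, against 13.2, 17.5 and 5.68 CPM in control. Phosphate starvation genes, a field in which WRKY75 is known, were higher in 7 and lower in 7 of 22 cases, both near the background, with SPX1 (1.80 ± 0.26) and PAP17 (1.79 ± 0.23) as the largest changes.

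Within several families, genes of related function moved in opposite directions (examples chosen after their values were seen). GR1, cytosolic glutathione reductase, rose by 1.35 ± 0.20, and GR, the plastid and mitochondrial form, fell by 1.07 ± 0.13. HEMA2 had 118, 174 and 93.3 CPM under ozone, against 14.6, 18.2 and 16.8 CPM in control, while HEMA1, the main glutamyl-tRNA reductase gene of green leaves, had 359, 219 and 191 CPM under ozone, against 1118, 1260 and 1216 CPM in control. GSR 1, a cytosolic glutamine synthetase, rose by 3.84 ± 0.27, and GS2, the plastid form, fell by 0.58 ± 0.15. The sulfurylase genes APS1 and APS2 changed by 1.25 ± 0.17 and -1.15 ± 0.15, the alternative dehydrogenase genes NDA2 and NDA1 by 3.71 ± 0.25 and -1.35 ± 0.21, and the indole glucosinolate regulators MYB51 and MYB34 by 3.81 ± 0.37 and -1.93 ± 0.22. Both members of each pair kept these directions under each scaling tried.

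Promoters were described as the 300 bases before the annotated gene start (RefSeq annotation of TAIR10.1) for 19341 protein-coding genes tested. The W-box (TTGACC or TTGACT, on both strands) was present in 51.4% of the promoters of the 1100 genes raised at least 8-fold, in 25.2% of the 755 genes lowered at least 4-fold and in 32.1% of all. Promoters with 2 or more made up 20.1%, 3.84% and 7.75% of these sets, so repeats of the motif were seen most often upstream of strongly raised genes. By gene group the shares varied in both directions: among groups mostly called higher the W-box was in 23 of 36 cysteine-rich receptor-like kinase and 14 of 20 pattern receptor promoters, but in 2 of 13 stress NAC, 1 of 12 calmodulin-like sensor and 4 of 18 salicylic acid signalling promoters. Among groups with more lower than higher calls it was in 9 of 51 photosystem promoters and in 10 of 21 promoters of auxin synthesis and transport. The median GC content was 30.7% in the raised and the lowered set and 31.3% in all, so base composition hardly differed between them.

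Other motifs were rarer. The heat shock element (GAANNTTC) was in 18.9% of raised, 9.80% of lowered and 11.6% of all promoters, the CGCG box (ACGCGT) in 4.82%, 1.06% and 2.1%, and the GCC box (GCCGCC) in 4.36%, 1.72% and 2.42%. The G-box (CACGTG) was in 8.91%, 9.01% and 8.02%, and the evening element (AAATATCT) in 5.45%, 6.49% and 5.78%. A motif match is a description of the letters and no evidence of binding. Where 2 copies of a motif overlap or touch, each is counted.

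**Figure D3:**
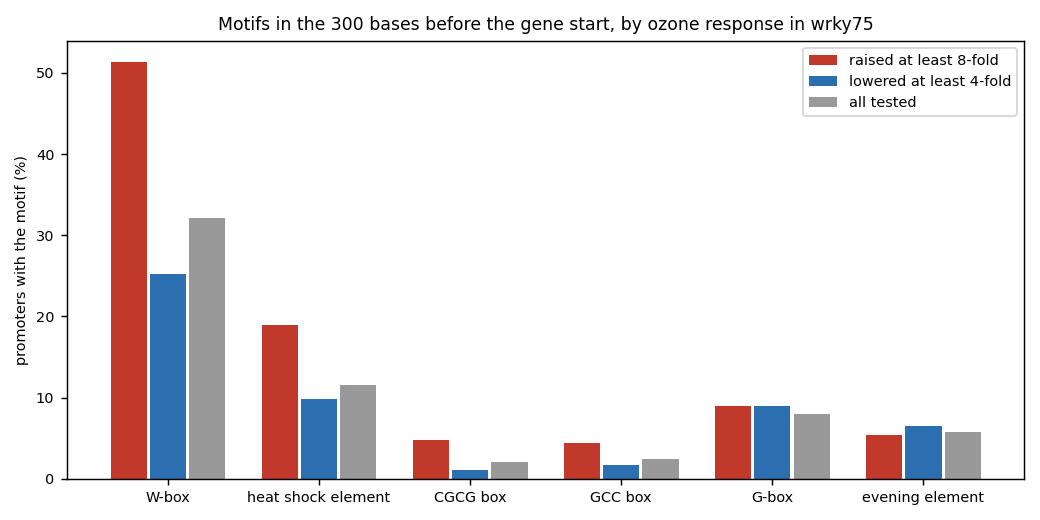
Share of promoters (300 bases before the gene start, %) that hold each motif, for genes raised at least 8-fold, genes lowered at least 4-fold and all 19341 genes tested; bars start at 0. The W-box is in 51.4% of raised, 25.2% of lowered and 32.1% of all promoters, while the G-box shares differ little.

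The promoters below show how the motif is arranged in genes of the response. WRKY75 and WRKY33 are shown as genes named in the genotype labels of the series, and WRKY25, which a label also names, is not shown. The others come from genes raised at least 8-fold to at least 50 CPM whose window holds no other gene. Among these, CRK11 and AT3G26910 are the only 2 with at least 4 W-boxes, and AT1G56060 is the most strongly raised with 2 heat shock elements. Each runs 5′ to 3′ toward the gene start, from the TAIR10.1 genome. Capitals mark W-boxes of either strand in the first 4 and heat shock elements in the last, and no other motif is marked. The window of AT1G56060 also holds W-boxes, left in lower case.
WRKY75 (chr5:4151202-4151501, minus strand, 1 W-box): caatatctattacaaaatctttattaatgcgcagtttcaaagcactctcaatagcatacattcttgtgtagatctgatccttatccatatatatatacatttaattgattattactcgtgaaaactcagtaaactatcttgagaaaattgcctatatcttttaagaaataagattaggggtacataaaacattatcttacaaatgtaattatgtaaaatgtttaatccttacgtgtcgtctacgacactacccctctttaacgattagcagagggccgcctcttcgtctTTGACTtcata
WRKY33 (chr2:16107935-16108234, plus strand, 3 W-boxes): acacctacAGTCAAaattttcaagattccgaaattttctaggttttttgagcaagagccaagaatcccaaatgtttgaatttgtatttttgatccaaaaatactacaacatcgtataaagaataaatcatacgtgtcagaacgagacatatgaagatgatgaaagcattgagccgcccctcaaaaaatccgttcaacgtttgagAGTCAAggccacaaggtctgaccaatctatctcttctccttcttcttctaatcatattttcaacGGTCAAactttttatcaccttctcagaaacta
CRK11 (chr4:12143859-12144158, minus strand, 4 W-boxes): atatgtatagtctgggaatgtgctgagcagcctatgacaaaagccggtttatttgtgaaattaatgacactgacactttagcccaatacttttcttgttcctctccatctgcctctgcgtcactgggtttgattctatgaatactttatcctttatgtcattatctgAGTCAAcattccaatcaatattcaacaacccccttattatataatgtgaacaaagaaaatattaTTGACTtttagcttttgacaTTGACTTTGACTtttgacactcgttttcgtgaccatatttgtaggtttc
AT3G26910 (chr3:9918811-9919110, minus strand, 5 W-boxes): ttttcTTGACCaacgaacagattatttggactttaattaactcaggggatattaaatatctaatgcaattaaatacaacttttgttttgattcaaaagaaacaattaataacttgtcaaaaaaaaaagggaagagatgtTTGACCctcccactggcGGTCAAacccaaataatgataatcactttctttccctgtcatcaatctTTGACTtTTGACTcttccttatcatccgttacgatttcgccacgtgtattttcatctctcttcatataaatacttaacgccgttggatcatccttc
AT1G56060 (chr1:20967181-20967480, minus strand, 2 heat shock elements): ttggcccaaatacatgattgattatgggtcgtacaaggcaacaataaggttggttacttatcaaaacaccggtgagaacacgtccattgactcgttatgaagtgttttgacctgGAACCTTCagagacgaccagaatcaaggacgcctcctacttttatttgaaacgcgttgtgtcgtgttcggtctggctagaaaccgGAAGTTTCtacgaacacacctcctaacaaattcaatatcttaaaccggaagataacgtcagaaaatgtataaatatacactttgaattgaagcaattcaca

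CRK11 and AT3G26910 were chosen for their rise, and their levels are given as a description. CRK11, a cysteine-rich receptor-like kinase, had 217, 166 and 118 CPM under ozone, against 3.02, 5.08 and 4.48 CPM in control (log2 fold change 5.31 ± 0.33). AT3G26910, which encodes a hydroxyproline-rich glycoprotein, had 118, 85.3 and 71.3 CPM under ozone, against 8.24, 7.09 and 7.14 CPM in control (log2 fold change 3.61 ± 0.23). The single W-box of WRKY75 lies close to the gene start, whereas the 3 of WRKY33 are spread over its window.

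The response of wrky75 was then set against that of Col-0, which shares no library with it. Of the genes called in wrky75, 12666 were called in the same direction in Col-0, and 0 were called in opposite directions. The shared calls are 93.2% of the wrky75 calls and 91.1% of the Col-0 calls. These shares are to be read against the 13907 of 19954 tested genes that were called in Col-0. Across the 14651 genes averaging at least 5 CPM, the log2 fold changes correlated at r = 0.987, a description over genes and not over replicates. The difference between the responses, tested directly, was called for 0 genes by edgeR (smallest adjusted p = 0.141), with 349 genes (1.75%) at an unadjusted p under 0.05, and for 2 genes by DESeq2. For 99.1% of those 14651 genes the difference was within 1 on the log2 scale. Its median standard error was 0.20, and differences several times that size did not pass. HEI10 at 1.74 ± 0.29 (adjusted p = 0.141, edgeR) and AT2G38480 at -0.92 ± 0.22 were not called. The 0 calls therefore do not show that differences of such sizes are absent. The blocked fits of replicate numbers called 0 genes as well.

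**Figure D4:**
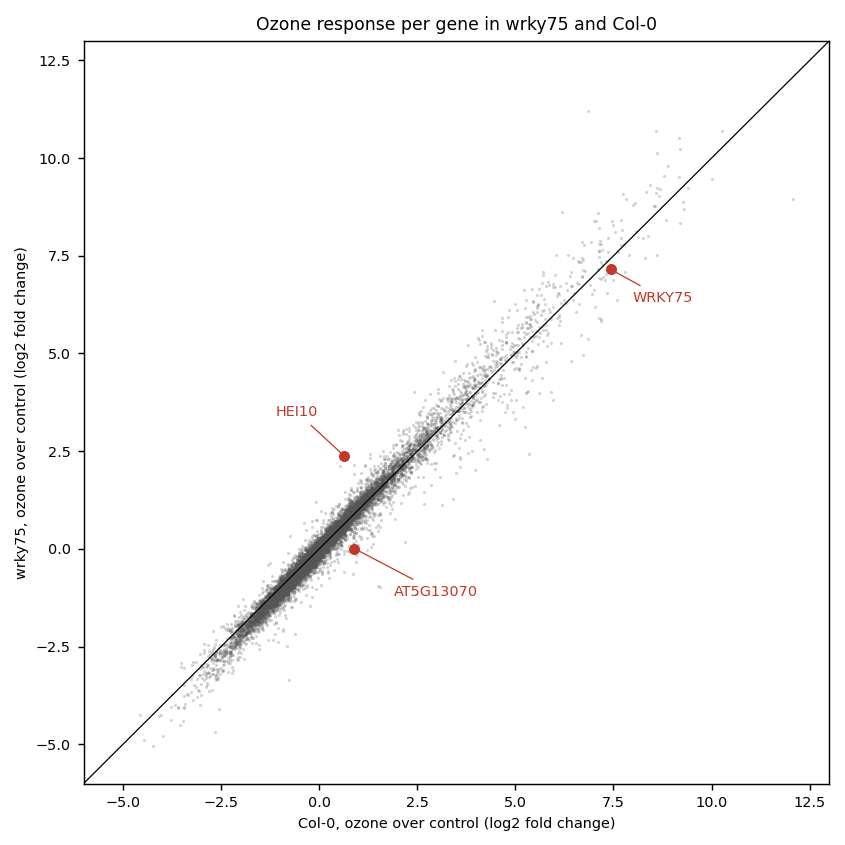
Ozone response (log2 fold change) in wrky75 (vertical axis) against that in Col-0 (horizontal axis) for the 14651 genes averaging at least 5 CPM; the diagonal marks equal responses. Labelled are WRKY75 and the 2 genes whose difference DESeq2 called, HEI10 above the diagonal and AT5G13070 below it.

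AT5G13070, which encodes a protein of the MSF1-like family, was not called in wrky75 (0.01 ± 0.11) and rose in Col-0 (0.90 ± 0.10). Its level was 25.01, 30.8 and 25.8 CPM in wrky75 ozone libraries, against 26.8, 29.2 and 25.2 CPM in wrky75 control libraries, and 30.4, 40.5, 37.1 and 35.4 CPM in the ozone libraries of Col-0, against 17.9, 19.3, 20.99 and 18.8 CPM in the control libraries of Col-0. The wrky75 groups overlapped and the Col-0 groups did not. All 3 wrky75 control libraries were above all 4 Col-0 control libraries, and 2 of the 3 wrky75 ozone libraries were below all Col-0 ozone libraries. The level in wrky25 wrky33 was 28.8, 29.4 and 31.5 CPM under ozone, against 19.1, 21.5 and 17.6 CPM in control. The difference in response was -0.85 ± 0.17 (log2, adjusted p = 0.0174, DESeq2; 0.141, edgeR). This gene is the immediate neighbour of WRKY75: it lies at chr5:4147636-4149252, and 487 bases separate the 2 genes. AT5G13090, the neighbour 2434 bases away on the other side, changed by -0.61 ± 0.15 in wrky75, against 0.07 ± 0.13 in Col-0 (difference -0.69 ± 0.20, adjusted p = 1.000, edgeR). The part that the position beside the mutated gene has in these values was not tested.

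HEI10, known in meiosis as a crossover factor, had a log2 fold change of 2.38 ± 0.20 in wrky75, against 0.64 ± 0.21 in Col-0. Its level was 7.35, 10.2 and 11.7 CPM in wrky75 ozone libraries, against 1.91, 1.82 and 1.91 CPM in wrky75 control libraries, and 1.52, 1.51, 1.46 and 1.201 CPM in the ozone libraries of Col-0, against 1.003, 1.05, 0.734 and 0.865 CPM in the control libraries of Col-0. All 6 wrky75 libraries lay above all 8 Col-0 libraries. The difference in response from Col-0 was 1.78 ± 0.37 (log2, adjusted p = 0.0174 by DESeq2 and 0.141 by edgeR). From wrky25 wrky33 it was 1.61 ± 0.31 (adjusted p = 0.0232, edgeR), a call not kept in all 21 settings. In wrky25 wrky33, HEI10 had 1.75, 1.11 and 2.16 CPM under ozone, against 0.993, 0.950 and 1.01 CPM in control. HEI10 lies at chr1:19963267-19966952 and overlaps MRD1 on the other strand over 1446 bases, and reads of the pair cannot be assigned by strand. MRD1 had 2.54, 3.89 and 2.83 CPM in wrky75 ozone libraries and 1.86, 2.35 and 2.41 CPM in wrky75 control libraries, against 0.0489, 0.0488, 0.183 and 0 CPM in Col-0 ozone and 0.0502, 0, 0 and 0.0455 CPM in Col-0 control. In wrky25 wrky33 it was at most 0.270 CPM. MRD1 was examined after its overlap with HEI10 was seen. It separated wrky75 from the other genotypes in every library and was not called as a response to ozone in wrky75 (0.48 ± 0.37, adjusted p = 0.255, edgeR).

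The other genes with the smallest p for this difference did not pass in either tool. PPX2, a protein phosphatase, was at -1.26 ± 0.09 in wrky75, against -0.75 ± 0.07 in Col-0, AT5G49680, a SABRE-like gene, was at 3.84 ± 0.19, against 3.05 ± 0.15, and AT2G38480, next to WRKY33, was at -2.45 ± 0.17, against -1.53 ± 0.14. AT3G48240 was at 0.05 ± 0.38 in wrky75, against -1.67 ± 0.34 in Col-0.

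Of 7 genes described as WRKY75 targets, 5 had enough counts to be tested. EDS16 had 229, 451 and 268 CPM in wrky75 ozone libraries, against 23.03, 23.4 and 19.8 CPM in wrky75 control libraries, and the response differed from that in Col-0 by 0.09 ± 0.37 (log2). CAT2 fell to 739.8, 321 and 303 CPM, against 1522, 2239 and 2105 CPM, and differed by -0.16 ± 0.50. GA3OX1, of gibberellin synthesis, fell to 1.93, 1.26 and 2.33 CPM, against 12.9, 14.9 and 17.4 CPM, and differed by -0.04 ± 0.33. CPC, a root hair regulator, was at 1.999 ± 0.355 CPM under ozone, against 1.77 ± 0.627 CPM in control and was not called. SAG12, with counts in 1 of the 6 wrky75 libraries, differed by 5.29 ± 5.46. None of these 5 differences from Col-0 passed the test (adjusted p = 1.000 for each, edgeR).

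Against wrky25 wrky33, which also shares no library with wrky75, 11820 genes were called in the same direction and 19 in opposite directions. The former are 87.0% of the wrky75 calls and 91.1% of the wrky25 wrky33 calls. In wrky25 wrky33, 12980 of the 19954 tested genes were called. The difference in response was called for 104 genes (0.521% of those tested, edgeR interaction test), 89 with the more positive response in wrky75 and 15 with the more negative. Same-numbered libraries of these genotypes deviated together within each treatment (r = 0.328 to 0.592 over 6 pairs), and with the replicate number as a block within treatment 1627 genes were called, 798 more positive and 829 more negative, with all 104 among them. Leaving out 1 library gave 47 to 107 genes. Without 1 of 7 libraries the count fell by more than 1.5 times: to 51 and 47 without wrky25 wrky33 control 2 and 3, to 60, 55 and 60 without its ozone 1, 2 and 3, to 49 without wrky75 control 3 and to 56 without wrky75 ozone 2. In all 21 settings tried 34 of the 104 were kept.

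Most of the 104 genes rose more in wrky75 than in wrky25 wrky33, and edgeR called none of the 104 different from Col-0. The mean in Col-0 ozone libraries was 94.5 CPM for RHA1A and 79.9 CPM for BGLU45, the first genes below. RHA1A, a RING-type ubiquitin ligase gene, had 93.5, 107 and 88.2 CPM in wrky75 ozone libraries, against 1.21, 1.197 and 1.56 CPM in wrky75 control libraries, and 7.58, 11.6 and 9.64 CPM in wrky25 wrky33 ozone libraries, against 0.844, 0.950 and 1.22 CPM in wrky25 wrky33 control libraries. The difference was 2.93 ± 0.35 (adjusted p = 2.95e-04, edgeR). BGLU45, a beta-glucosidase of monolignol glucosides, reached 86.1, 108 and 85.2 CPM in wrky75 ozone libraries, against 0.955, 0.575 and 1.01 CPM in control, but 2.89, 4.11 and 3.51 CPM in wrky25 wrky33 ozone libraries, against 0.447, 0.400 and 0.608 CPM in control (difference 3.94 ± 0.66, not called without wrky25 wrky33 control 3). TPX2, a thioredoxin-dependent peroxidase gene that overlaps GAD2 on the other strand, differed by 6.03 ± 1.31, AT4G22960 by 2.88 ± 0.61 and AT3G05550, of the hypoxia-responsive family, by 2.65 ± 0.53. The calls of TPX2, AT4G22960 and AT3G05550 were lost in 13, 13 and 9 of 21 settings (adjusted p up to 0.501, 0.206 and 0.154).

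Some of the 34 genes kept in every setting belong to metabolism named above (chosen after their values were seen). ASA1, the entry enzyme of tryptophan synthesis, rose by 3.52 ± 0.22 in wrky75, against 1.80 ± 0.21 in wrky25 wrky33 (adjusted p = 0.00816, edgeR). CYP71B6, a cytochrome P450 of indolic metabolism, had 279, 265 and 272 CPM in wrky75 ozone libraries, against 35.8, 38.9 and 35.7 CPM in control, and 59.1, 51.6 and 65.3 CPM in wrky25 wrky33 ozone libraries, against 33.9, 39.4 and 39.7 CPM in control. GSTU10 rose by 2.95 ± 0.22, against 0.44 ± 0.23, and SUS1, a sucrose synthase, by 2.04 ± 0.30, against -0.42 ± 0.29. FAH1, of sinapate and lignin synthesis, rose by 0.73 ± 0.11 in wrky75, while its value in wrky25 wrky33 was -0.44 ± 0.11. Mean levels in Col-0 ozone libraries were 587 CPM for ASA1, 278 for CYP71B6, 22.8 for GSTU10 and 179 for SUS1. The corresponding means in wrky75 ozone libraries were 665, 272, 24.1 and 217 CPM.

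The genes with the more negative response in wrky75 were led by AT2G38480. It had 1.42, 1.897 and 1.64 CPM in wrky75 ozone libraries, against 8.35, 9.87 and 9.001 CPM in wrky75 control libraries, and 12.7, 17.1 and 13.01 CPM in wrky25 wrky33 ozone libraries, against 13.9, 14.5 and 14.7 CPM in wrky25 wrky33 control libraries (difference -2.44 ± 0.23, adjusted p = 1.92e-05, edgeR). The gene overlaps the end of WRKY33 by 26 bases on the other strand, and the line wrky25 wrky33 is labelled as a mutant of WRKY33. The WRKY33 level was 426, 344 and 224 CPM in the ozone libraries of that line, against 12.6, 14.2 and 13.6 CPM in its control libraries, so counts per gene do not show this lesion as a loss of transcript either. The part of this position was not tested. WRKY25, the other gene named in that label, rose by 3.79 ± 0.29 in wrky75, against 5.56 ± 0.32 in wrky25 wrky33, a difference lost in 13 of 21 settings. CKX4, a cytokinin oxidase, had 35.6, 28.02 and 32.3 CPM in wrky75 ozone libraries, against 9.602, 12.9 and 9.45 CPM in control, and 97.9, 86.7 and 92.6 CPM in wrky25 wrky33 ozone libraries, against 11.6, 10.6 and 8.16 CPM in control (difference -1.60 ± 0.33, lost in 9 of 21 settings). AT1G28600, a GDSL lipase gene, was at 0.00 ± 0.22 in wrky75, against 1.54 ± 0.23 in wrky25 wrky33 (lost in 10 of 21 settings), and AT1G21060 was at -0.96 ± 0.17, against 0.63 ± 0.16.

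**Figure D5:**
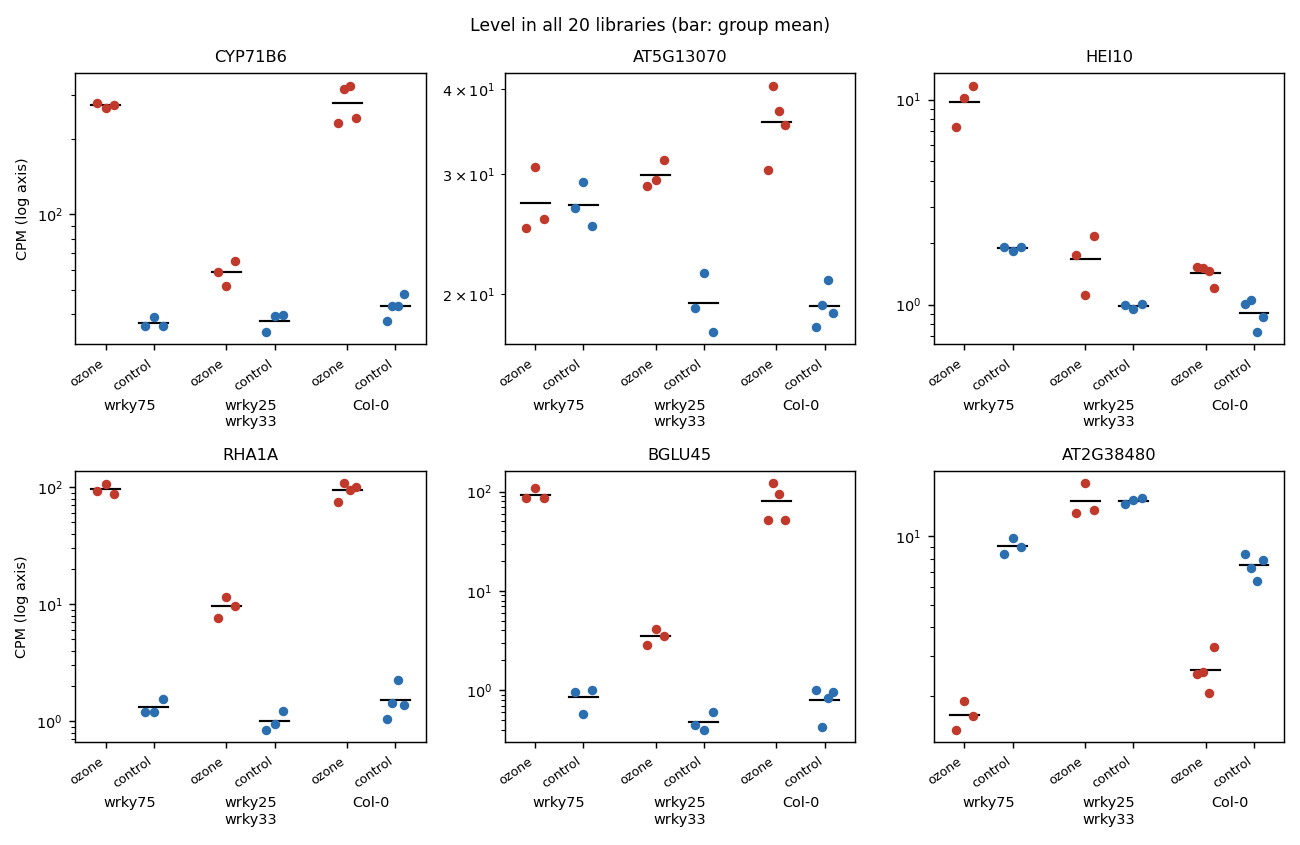
Level in CPM (log axis) of 6 genes in all 20 libraries, with wrky75, wrky25 wrky33 and Col-0 from left to right and ozone left of control within each; a dot is 1 library and the bar is the group mean. AT5G13070 does not separate ozone from control in wrky75, HEI10 is highest in wrky75, and CYP71B6, RHA1A and BGLU45 under ozone are lower in wrky25 wrky33 than in wrky75 and Col-0.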

How the data were processed

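RNA of pooled whole rosettes was sequenced after TruSeq RNA v2 library preparation, per the labels' protocols. TopHat2, HTSeq, SAMtools and FastQC are named in the submitters' processing notes with the genome build TAIR10; the sources used here do not give their versions. The deposited values are raw counts per gene, not normalized, for 33602 genes, with gene coordinates in each file. The kit does not keep strand, so overlapping genes may share reads. Totals lay between 20505104 and 20755838 counts in the wrky75 libraries. The labels give separate pools, and p-values measure the spread between them.

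Counts were tested with edgeR 4.0.16 (R 4.3.3, limma 3.58.1): quasi-likelihood F-test, trimmed-mean scaling, genes passing filterByExpr (19954), 6 group means over all 20 libraries, Benjamini-Hochberg adjusted p of 0.05. Differences between responses were interaction contrasts of the same fit. A standard error is the size of the log2 fold change over the square root of F. DESeq2 1.42.0 was an alternative. The code was tested on simulated data. Symbols came from RefSeq for 32835 genes (97.72%), and promoter sequence from the TAIR10.1 genome. Members and gene lists were chosen with earlier results of these data known. List names that fitted more than one gene were resolved by locus after the counts had been seen.

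Genes are named by these rules: WRKY75, WRKY33 and WRKY25; the 10 largest increases and decreases in fold among called genes that average at least 5 CPM and whose groups do not overlap; the 10 largest gains and losses in CPM; in each list up to 4 called members with the largest change, then uncalled ones; abundant stable genes; and, for each difference between genotypes, the 5 largest called genes in each direction or, with none called, the 3 with the smallest p. Same-numbered wrky75 and wrky25 wrky33 libraries of 1 treatment deviated together (r = 0.328 to 0.592). Those of wrky75 and Col-0 had r = 0.677, 0.473 and 0.512 under ozone and 0.411, 0.483 and 0.0941 in control. This pairing was seen in the data and is not stated in the labels.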

Additional observations from a re-analysis of the deposited data

Results flagged for a closer look

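The ozone response of 104 genes differed between wrky75 and wrky25 wrky33 by the test of the difference itself (edgeR interaction test over all 20 libraries), 89 with the more positive response in wrky75 and 15 with the more negative. The comparison of wrky75 with Col-0 gave 0 such genes by the same test.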

How the results depend on the processing

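The ozone response in wrky75 gave 12734 to 14771 called genes under the other tests, scalings, filters and fits, and 12535 to 13486 without single wrky75 libraries, and 10794 of the 13594 calls (79.4%) were kept in all 14 settings. Deviations of same-numbered wrky75 ozone and control libraries correlated at r = 0.144, 0.271 and -0.0123, and those of the other pairings at -0.207 to 0.108. With a replicate block 14771 genes were called. The difference from Col-0 was called for 0 genes in every edgeR setting, the replicate block included (759 genes at an unadjusted p under 0.05), and for 2 genes by DESeq2. The difference from wrky25 wrky33 was called for 254 genes by DESeq2 (207 more positive and 47 more negative in wrky75), for 66 with library totals alone (49 more positive), for 171 in a fit of only the 12 mutant libraries (149 more positive) and for 388 with the replicate block (265 and 123). With the block set within treatment, chosen after seeing the data, 1627 genes were called (798 and 829). Without single libraries there were 47 to 107 genes, 44 to 97 more positive and 2 to 23 more negative. The causes of these shifts were not tested. Of 1988 recomputed counts of list members 116 moved by more than 1.5 times. Of 3584 values of named genes 73 lost and 13 gained a call, and none changed sign while called. The W-box share of raised promoters was 47.8% with a limit of 4-fold. With 3 libraries a group, no exact test of a single value could give a p under 0.1.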
